A study of Mus musculus with 16 samples.

Results

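The unfolded protein response and the integrated stress response were described through 38 genes of the 53850 in the deposited table: 4 stress sensors, 3 transcription factors, 2 phosphatase subunits, 5 targets of the integrated stress response, 11 chaperones and cofactors of the endoplasmic reticulum (ER), 3 disulfide isomerases, 9 genes of ER-associated degradation and Wfs1. They were chosen by name from textbook knowledge of the pathways, with earlier results of these data known, and matched to the table by gene symbol. All 38 passed the filter on low values, which left 19594 genes for testing. Microglia, the resident macrophages of the brain, came from the cortex of C57BL/6J mice and were collected by fluorescence-activated cell sorting. For 1 week the mice had eaten control chow or chow with PLX3397, an inhibitor of the colony-stimulating factor 1 receptor, on whose signal microglia depend for survival. There were 4 libraries each of males on control chow, males on PLX3397, females on control chow and females on PLX3397. The animals were called young in the series' text and had no genetic change beyond the strain. Their ages, the gate of the sort and whether the 4 libraries of a group came from separate mice are not given in the sources used here, so p-values measure the spread between these samples. Libraries of the PLX3397 groups hold the cells that were still present to be sorted after the inhibitor.

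Proteins that enter the secretory pathway fold in the ER with the help of chaperones and disulfide isomerases, and those that fail are drawn back into the cytosol and degraded. When unfolded proteins build up, the ER membrane sensors encoded by Ern1, Eif2ak3 and Atf6 start the unfolded protein response, which through XBP1, ATF4 and ATF6 raises transcription of folding and degradation genes. Phosphorylation of the initiation factor eIF2-alpha by Eif2ak3, Eif2ak4 and related kinases is the shared step of the integrated stress response: it slows translation and favours ATF4, which in turn drives amino acid metabolism genes and, under lasting stress, Ddit3. Much of this control acts through splicing, cleavage or phosphorylation, which gene-level read counts do not show.

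Values are the authors' normalised read counts per gene, and a difference is given as log2 fold change ± SE of log2(value + 1), positive when the first group named is higher. A gene is called when limma's Benjamini-Hochberg adjusted p over all 19594 genes was under 0.05. Gene lengths were not divided out, so levels are compared between groups and not between genes. Estimated reads per library ran from 22200000 to 78600000. Microglial markers were high in all libraries, with a sum over 9 markers of 989600 to 2509000. This sum was 989600 to 1405000 in males on PLX3397 against 2163000 to 2336000 in male controls, and 1583000 to 1794000 against 2049000 to 2509000 in females. Of the 9 microglial markers 8 were called lower on PLX3397 in males and 6 in females, with median log2 changes of -0.99 and -0.46. The sum over 11 neutrophil markers was 10700 to 75100 in males on PLX3397, 530.6 to 3668 in male controls, 1046 to 3485 in females on PLX3397 and 202.6 to 271.4 in female controls. Of those 11 markers 9 were called higher on PLX3397 in males and 6 in females, and Ly6g was at 0 in every library of both control groups. The mitochondrial share of the counts was 0.591 to 0.676% in males on PLX3397 and 0.273 to 0.455% in the 12 other libraries. Markers of border macrophages, 11 genes that summed to 2469 to 3690 in male controls, summed to 907.9 to 1451 in males on PLX3397 (6 called lower), and in females to 2065 to 4259 and 1403 to 1904 (4 called lower). The sum of 8 monocyte markers was 646.8 to 1042 in male controls and 1131 to 6627 in males on PLX3397, with 0 of the 6 tested called by limma and 3 at an unadjusted p under 0.05. It was 617.3 to 781.8 and 600.8 to 895.3 in females. Early genes that tissue dissociation can induce, 8 in the list, summed to 31770 to 36790 in male controls and 26020 to 62500 in treated males, where 1 was called higher, and to 29210 to 40800 and 32890 to 39060 in females. On PLX3397, 1 of 4 oligodendrocyte markers tested was called higher in each sex. Of 6 B and plasma cell markers 2 were called lower in males and 1 in females. Of 3 endothelial markers 1 was called lower in each sex. Of 5 astrocyte markers 0 were called in males and 1 was called higher in females. Markers of neurons (4 tested) and of T and NK cells (1 tested) had 0 called in either sex. The part of these marker lists and of the mitochondrial share in the results was not tested. Xist was at 515.7 in male control replicate 4, against 14.72 to 31.4 in the other male libraries and 5542 or more in each female library, while its Y-linked Ddx3y (2589) lay close to that of the other males (2641 to 3307). The deposited total of male PLX3397 replicate 2 (32640000) was the lowest of all 16, which reached 44160000, and this library held the lowest value of its group in 28 of the 38 genes.

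In males, 10 of the 38 genes fell on PLX3397 and 0 rose. Among all genes tested 7.52% were called lower and 4.16% higher. The genes that fell were the transcription factor Xbp1, the phosphatase subunit Ppp1r15b, the chaperone genes Canx, Dnajb11 and Dnajc3, the disulfide isomerases Pdia3 and Pdia6, and the degradation genes Edem1, Derl1 and Derl2. The median log2 change of the 38 was -0.27, against 0.02 over all genes tested. Of the 38, 30 had a negative change, against 9443 of all 19594 genes tested. With every library set to the same total, 21 of the 38 were negative, and the medians were -0.11 and 0.18. In females 1 gene, Trib3, rose and 0 fell, where 2.67% of all genes tested were called higher and 2.67% lower. The median change of the 38 in females was 0.02, against -0.00 over all genes. At an unadjusted p under 0.05 there were 17 of the 38 in males and 6 in females, against 4660 and 3347 of all 19594 genes tested. Fewer microglia among the sorted cells and less RNA of a gene per cell cannot be told apart in these bulk libraries.

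**Figure D1:**
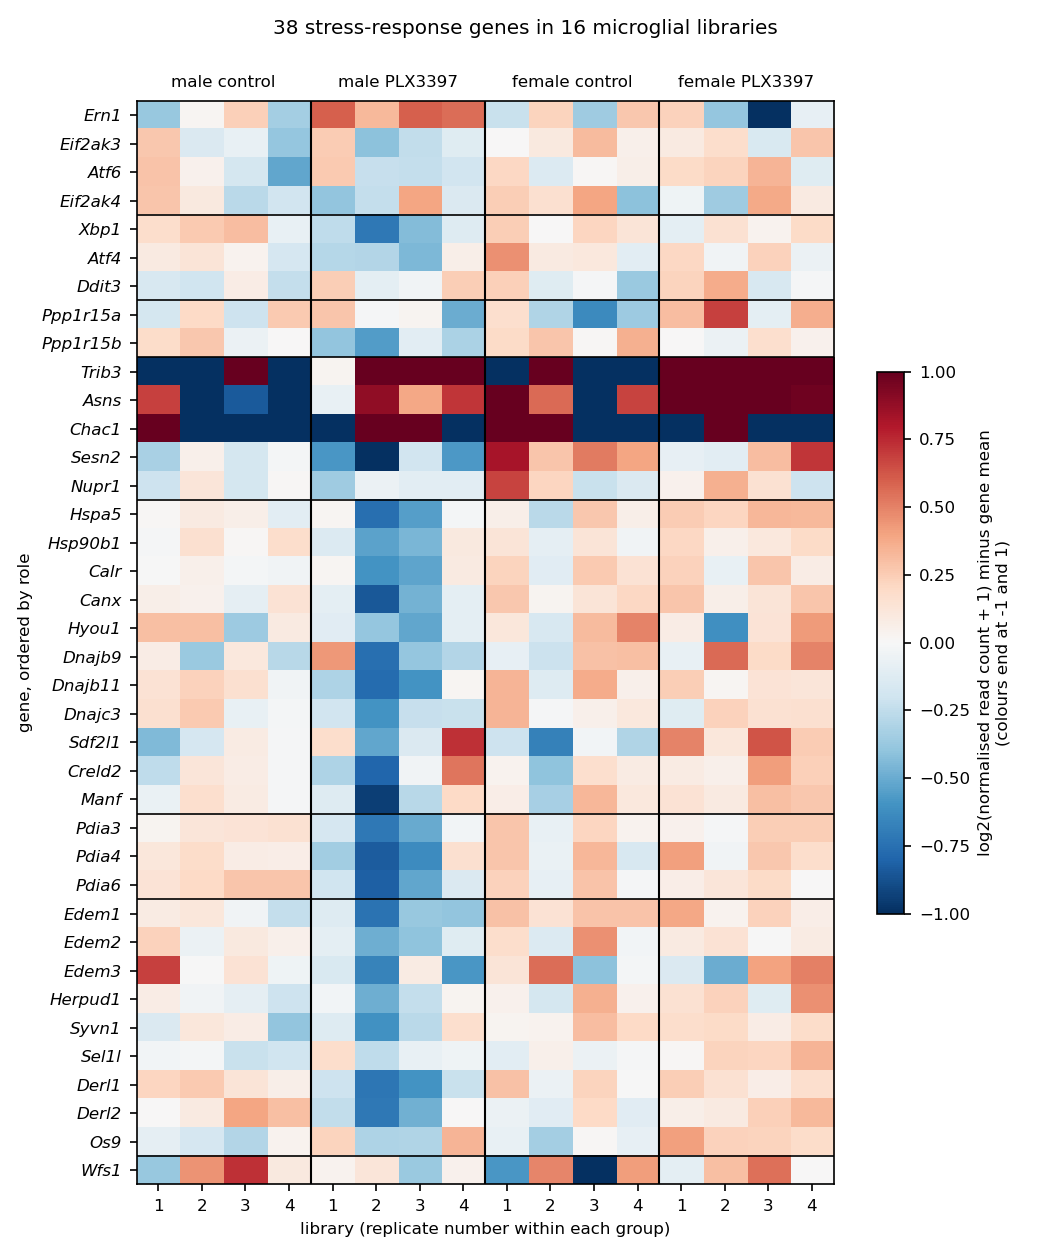
Heat map of log2(normalised read count + 1) of the 38 genes minus each gene's mean over the 16 libraries (colour, ending at -1 and 1), with genes in rows grouped by role and libraries in columns grouped by sex and chow. Blue is concentrated in male PLX3397 replicates 2 and 3, over the rows of the chaperones, disulfide isomerases and degradation genes, while Ern1 is red in all 4 libraries of males on PLX3397.

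The 4 sensor genes were not called between chows in either sex. Ern1, which encodes the kinase and endonuclease IRE1 that splices Xbp1 mRNA, stood at 625.5, 825.6, 962 and 641.3 in male controls and at 1229, 1018, 1231 and 1199 in males on PLX3397. All 4 treated male libraries lay above the controls, and the difference of 0.63 ± 0.262 did not pass the test (adjusted p = 0.147). In females Ern1 was 698.2, 950, 634.7 and 981.7 on control chow and 954.3, 620.4, 331.2 and 768.5 on PLX3397, with overlapping groups and a difference of -0.36 ± 0.262. Ern1 had the widest gap between the sexes' responses among the sensors (95% interval of females minus males -1.78 to -0.21), which did not pass the test (adjusted p = 0.358).

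Eif2ak3 encodes PERK, the eIF2-alpha kinase of the ER membrane. It was at 3239, 2436, 2554 and 2062 in male controls, 3202, 2023, 2264 and 2475 in males on PLX3397, 2697, 2875, 3352 and 2794 in female controls and 2863, 3046, 2425 and 3268 in females on PLX3397. The groups overlapped, with differences of -0.05 ± 0.157 in males and -0.02 ± 0.157 in females. Atf6, the sensor that is cut in the Golgi to release a transcription factor, was at 3140, 2657, 2282 and 1797 in male controls and 3092, 2198, 2189 and 2260 in males on PLX3397. Its female libraries held 2980, 2352, 2600 and 2693 on control chow and 2945, 3005, 3268 and 2373 on PLX3397. Differences of Atf6 were -0.01 ± 0.165 in males and 0.12 ± 0.165 in females. For both genes the 95% interval in males, -0.38 to 0.28 for Eif2ak3 and -0.36 to 0.34 for Atf6, leaves room for changes of up to about that size. Eif2ak4, the eIF2-alpha kinase that senses amino acid shortage, had group means from 1040 ± 266 (SD, n = 4) in males on PLX3397 to 1188 ± 261 in female controls, with differences of -0.08 ± 0.213 in both sexes.

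Among the transcription factors, Xbp1 fell in males. This gene encodes the transcription factor made from mRNA that IRE1 has spliced, and the gene-level values do not separate the spliced from the unspliced form. It was at 19500, 20780, 21390 and 16410 in male controls and at 14460, 10520, 12770 and 15770 in males on PLX3397. Every treated male library lay below every male control, and Xbp1 fell by 0.55 ± 0.118 on the log2 scale (adjusted p = 0.00486). Female libraries held 20490, 17350, 20010 and 18910 on control chow and 16150, 19260, 17670 and 19750 on PLX3397. The female groups overlapped, and the difference was -0.08 ± 0.118 (95% interval -0.33 to 0.17).

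Atf4, the factor whose translation rises when eIF2-alpha is phosphorylated, was at 5549, 5694, 5334 and 4637 in male controls and 4286, 4247, 3817 and 5419 in males on PLX3397. Values below the control range in 3 libraries and above its lowest value in 1 gave a difference of -0.26 ± 0.132 that did not pass the test (adjusted p = 0.24). In females Atf4 was 7171, 5552, 5608 and 4834 on control chow and 6014, 5086, 6118 and 5013 on PLX3397, a difference of -0.05 ± 0.132. Ddit3, which encodes CHOP, a factor tied to cell death under lasting ER stress, was at 1312, 1273, 1541 and 1239 in male controls and 1738, 1371, 1432 and 1738 in males on PLX3397. The female libraries held 1726, 1345, 1455 and 1132 on control chow and 1705, 1894, 1308 and 1448 on PLX3397. Ddit3 differed by 0.22 ± 0.153 in males and 0.17 ± 0.153 in females, with overlapping groups and adjusted p of 0.413 and 0.655. The upper bounds of the 95% intervals, 0.55 in males and 0.49 in females, limit the rise of Ddit3 mRNA that these samples allow.

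Of the 2 subunits that direct protein phosphatase 1 to eIF2-alpha and so end the translational block, the constitutive one fell in males. Ppp1r15b was at 4913, 5209, 4145 and 4326 in male controls and at 3277, 2935, 4013 and 3458 in males on PLX3397. The groups did not overlap, and Ppp1r15b fell by 0.45 ± 0.113 (adjusted p = 0.0159). The call held in 22 of the 28 alternative analyses. It was lost with equal library totals, with quantile normalisation and in a fit to the male groups alone. Leaving out male PLX3397 replicate 2 or male control replicate 1 or 2 also ended it. In females Ppp1r15b was at 4929, 5225, 4341 and 5520 on control chow and 4318, 4145, 4848 and 4438 on PLX3397, a difference of -0.17 ± 0.113 that did not pass the test. Ppp1r15a, the stress-inducible subunit, had means of 1702 ± 288 and 1630 ± 344 in males on control chow and PLX3397. In females the means were 1390 ± 338 and 2097 ± 457, and the difference of 0.60 ± 0.205 did not pass the test (adjusted p = 0.119).

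Of the 5 targets of the integrated stress response, Trib3 was the 1 called between chows, and Trib3, Asns and Chac1 were at 0 in some libraries. Trib3, a pseudokinase gene induced by ATF4 and CHOP, was at 0, 28.58, 0 and 0 in female controls and at 65.61, 147.5, 37.95 and 48.69 in females on PLX3397. Every treated female library was above every female control, and Trib3 rose by 4.83 ± 1.21 (adjusted p = 0.0254), a fitted value that depends on the added 1 because 3 controls were at 0. In males it was at 0, 0.6645, 53.9 and 2.061 on control chow and at 10.85, 25.33, 53.5 and 40.48 on PLX3397. The male groups overlapped through male control replicate 3, and the difference of 2.82 ± 1.21 did not pass (adjusted p = 0.162); without that library it did. The female call was lost without female PLX3397 replicate 1 or 2 or female control replicate 1, 3 or 4, and with voom weights.

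Asns, the asparagine synthetase gene, had means of 31.37 ± 34.7 and 72.89 ± 20.3 in males and 69.08 ± 50.2 and 179.6 ± 85.4 in females on control chow and PLX3397. Its differences of 1.85 ± 1.17 and 2.49 ± 1.17 did not pass the test. Chac1, which encodes a glutathione-degrading enzyme, was at 0 in 10 of the 16 libraries and at most at 43.99, so no direction can be read from it. Sesn2, a stress-induced inhibitor of mTORC1 signalling, was at 536.1, 697.1, 594.2 and 663.1 in male controls and 448.6, 323.8, 587.6 and 450.1 in males on PLX3397. In females Sesn2 stood at 1191, 812.1, 964.1 and 884.7 on control chow and at 635.3, 625.5, 833 and 1100 on PLX3397. All 4 female controls lay above all male controls, and the chow differences of -0.48 ± 0.209 in males and -0.29 ± 0.209 in females did not pass the test. Nupr1, a stress-induced chromatin-associated protein gene, had group means of 1410 ± 125 to 1770 ± 534 and was not called.

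**Figure D2:**
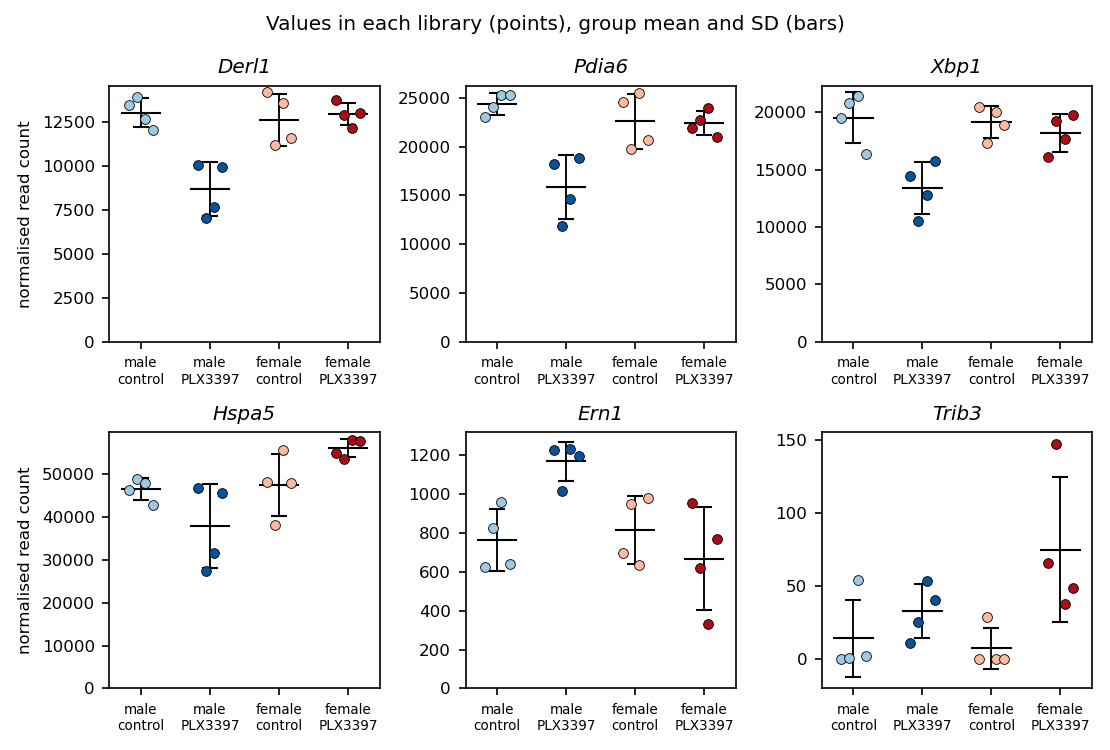
Normalised read counts of 6 genes in each library (points, 4 per group), with the group mean (line) and SD (bar) on linear axes. Derl1, Pdia6 and Xbp1 lie lower in each library of males on PLX3397 than in any male control, Hspa5 is lower in 2 of the 4, Ern1 is higher in all 4, and Trib3 is at or near 0 in most controls.

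Of the 11 ER chaperone and cofactor genes, 3 fell in males, where 7.52% of all genes tested were called lower. A negative change was seen in 10 of the 11, against 9443 of all 19594 genes tested. Hspa5, which encodes BiP, the main ER chaperone and a restraint on the 3 ER sensors, was at 46380, 48970, 48030 and 42930 in male controls and at 46880, 27410, 31560 and 45550 in males on PLX3397. Replicates 2 and 3 were far below the controls and replicates 1 and 4 within their range, and the difference of -0.34 ± 0.146 did not pass the test (adjusted p = 0.168). In females Hspa5 was at 48110, 38190, 55710 and 48020 on control chow and 55010, 53610, 57950 and 57770 on PLX3397, a difference of 0.25 ± 0.146 (adjusted p = 0.423). Neither sex had a called rise of this gene.

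Canx encodes calnexin, the membrane lectin that holds newly made glycoproteins. It was at 24330, 23990, 21980 and 25800 in male controls and at 21760, 12960, 16820 and 21760 in males on PLX3397. The male groups were separated by a narrow gap, and Canx fell by 0.42 ± 0.131 (adjusted p = 0.0478), close to the threshold, and the call held in 8 of the 28 alternatives and was lost without any 1 of 14 libraries. In females it was at 28140, 23740, 25460 and 26920 on control chow and 28330, 24250, 25470 and 28260 on PLX3397. Dnajb11, a J-domain cofactor of BiP, was at 6620, 7026, 6669 and 5848 in male controls and at 4823, 3506, 3962 and 6074 in males on PLX3397. Replicate 4 reached into the control range, and Dnajb11 fell by 0.54 ± 0.149 (adjusted p = 0.0262), a call that held in 21 of the 28 alternatives. Its female values were 7583, 5484, 7721 and 6184 on control chow and 7099, 6052, 6576 and 6490 on PLX3397, a difference of -0.03 ± 0.149. Dnajc3, another J-domain cofactor that also inhibits PERK, fell by 0.39 ± 0.118 in males (adjusted p = 0.0401), from a mean of 6287 ± 679 to 4795 ± 593, and was at 6453 ± 718 and 6386 ± 661 in females; its call held in 15 of the 28 alternatives.

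The other 7 chaperone and cofactor genes were not called between chows. Hsp90b1, the ER form of HSP90, had a mean of 39580 ± 2670 in male controls and 31590 ± 6500 in males on PLX3397 (-0.35 ± 0.111, adjusted p = 0.0561), just short of the threshold. Calr, the soluble lectin calreticulin, went from 26010 ± 687 to 22340 ± 5470 in males without passing the test, and its female means were 28640 ± 3200 and 28560 ± 3130. Differences in males were -0.36 for Hyou1, a nucleotide exchange factor of BiP, -0.33 for the secreted protein gene Manf, -0.13 for the J-domain gene Dnajb9 and -0.13 for Creld2, an ER stress-inducible protein gene. Sdf2l1, whose product works with Dnajb11, was the 1 chaperone gene with a positive difference in males (0.20 ± 0.215). In females Sdf2l1 ranged from 5322 to 8318 on control chow and from 9195 to 13150 on PLX3397, with no overlap, yet the difference of 0.68 ± 0.215 did not pass the test (adjusted p = 0.0848). It passed in 5 of the 28 alternative analyses, with equal library totals among them (adjusted p = 0.0339).

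The 3 disulfide isomerases, which form and rearrange disulfide bonds in the ER, had differences of -0.46 to -0.64 in males. Pdia6 was at 23000, 24050, 25330 and 25300 in male controls and at 18200, 11860, 14620 and 18880 in males on PLX3397. All treated male libraries lay below all male controls, and Pdia6 fell by 0.64 ± 0.124 (adjusted p = 0.00235), the lowest log2 change of the 38 genes in males. In females it was at 24540, 19720, 25460 and 20700 on control chow and 21900, 22760, 23930 and 21020 on PLX3397, a difference of -0.01 ± 0.124 (95% interval -0.27 to 0.26). Pdia3, the isomerase that works with calnexin and calreticulin, was at 45390, 48540, 49040 and 49580 in male controls and at 39710, 27200, 31360 and 43710 in males on PLX3397. Those groups did not overlap, and Pdia3 fell by 0.46 ± 0.124 (adjusted p = 0.021), which also held in 21 of the 28. The female libraries held 54030, 42380, 51770 and 45740 on control chow and 45890, 44110, 52790 and 52750 on PLX3397. Pdia4 had means of 11020 ± 419 and 7965 ± 2510 in males, with replicate 4 inside the control range, and its difference of -0.52 ± 0.172 did not pass the test (adjusted p = 0.063).

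Of the 9 degradation genes, 3 fell in males. Derl1 encodes a membrane protein of the channel through which misfolded proteins leave the ER, and it had the smallest adjusted p of the 38 genes in males. It was at 13480, 13920, 12680 and 12070 in male controls and at 10050, 7035, 7691 and 9961 in males on PLX3397. No treated male library reached the lowest control, and Derl1 fell by 0.60 ± 0.115 (adjusted p = 0.00222). Female values were 14190, 11170, 13580 and 11580 on control chow and 13740, 12900, 12160 and 13030 on PLX3397, a difference of 0.04 ± 0.115 (95% interval -0.20 to 0.29). Derl2, of the same family, was at 4752, 5042, 6231 and 5845 in male controls and at 4001, 2879, 3388 and 4753 in males on PLX3397. The male groups overlapped by a single pair of nearly equal values, and Derl2 fell by 0.56 ± 0.141 (adjusted p = 0.0153), which held in 24 of the 28 alternatives. In females Derl2 was at 4558, 4388, 5451 and 4367 on control chow and 4940, 5050, 5592 and 5943 on PLX3397.

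Edem1, whose product marks misfolded glycoproteins for export by trimming mannose, was at 14660, 14980, 13530 and 11720 in male controls and at 12680, 8285, 10630 and 10510 in males on PLX3397. The groups overlapped at replicate 1 of the treated males, and Edem1 fell by 0.39 ± 0.118 (adjusted p = 0.0406), a call that held in 16 of the 28 alternatives. In females it was at 16990, 15290, 16880 and 16840 on control chow and 18070, 14190, 16210 and 14470 on PLX3397. Its relatives Edem2 and Edem3 had male differences of -0.36 ± 0.12 (adjusted p = 0.0665) and -0.53 ± 0.255 (adjusted p = 0.222) and were not called. Genes of the ubiquitin ligase complex of the ER membrane were not called, with male differences of -0.13 for the ligase Syvn1, -0.12 for its recruiting factor Herpud1, 0.07 for its partner Sel1l and 0.12 for the lectin Os9. In females Os9 ranged from 11330 to 14520 on control chow and from 16300 to 19140 on PLX3397, without overlap, and the difference of 0.38 ± 0.136 did not pass the test (adjusted p = 0.13), although it did with equal library totals or quantile normalisation. Wfs1, which encodes the ER membrane protein wolframin, had group means of 392 ± 229 to 517 ± 163 and was not called.

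**Figure D3:**
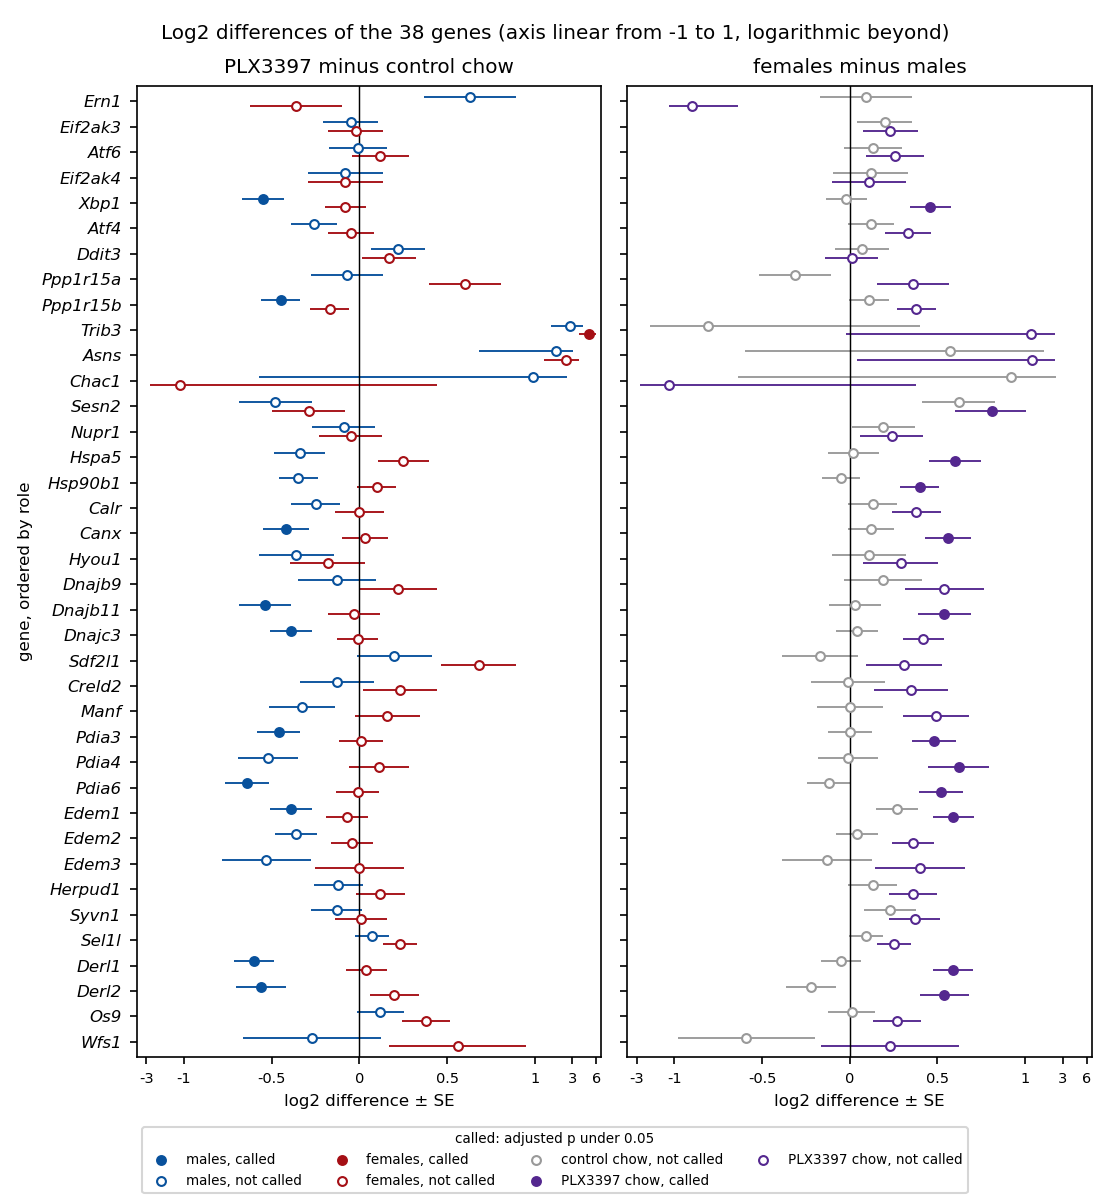
Log2 difference ± SE of each of the 38 genes (rows, by role) for PLX3397 minus control chow in males and females (left) and for females minus males on each chow (right), with filled points for adjusted p under 0.05 and an axis that is linear from -1 to 1 and logarithmic beyond. The 10 called genes of males lie left of 0 on the left, the 12 called genes on PLX3397 lie right of 0 on the right, and control chow has no filled point.

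Between the sexes on control chow, 0 of the 38 genes were called by limma. At an unadjusted p under 0.05 there were 2 of the 38, against 1017 of all 19594 genes tested. Over all genes 0.0153% were called higher in females and 0.051% lower. The median difference of the 38 was 0.05, against -0.01 over all genes. Apart from the low-count genes Trib3 and Chac1, Sesn2 had the difference farthest from 0 (0.62 ± 0.209, adjusted p = 0.863). On PLX3397, 12 of the 38 were higher in females than in males and 0 lower, where 4.28% of all genes were higher and 1.15% lower, and the median difference was 0.38 against -0.02. The 12 were Xbp1, Sesn2, the chaperone genes Hspa5, Hsp90b1, Canx and Dnajb11, all 3 disulfide isomerases, Edem1, Derl1 and Derl2. This comparison shares the 4 libraries of males on PLX3397 with the male chow comparison, so it is no independent view of the same genes. In this comparison 8 of the 9 microglial markers were called higher in females and 8 of the 11 neutrophil markers lower. On control chow 0 of the 9 microglial markers were called, and 5 of the 11 neutrophil markers were called lower in females. The part of these markers in either comparison was not tested.

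Side by side, Derl1 was 0.59 ± 0.115 higher in females than in males on PLX3397 (adjusted p = 0.00994) and -0.05 ± 0.115 apart on control chow. Edem1 was higher by 0.59 ± 0.118 on PLX3397 (adjusted p = 0.0116) and by 0.27 ± 0.118 on control chow, where the difference did not pass the test. Its female and male libraries did not overlap on either chow. Hspa5 was higher by 0.60 ± 0.146 on PLX3397 (adjusted p = 0.027): all 4 treated female libraries (53610 to 57950) lay above all 4 treated male libraries (27410 to 46880). Sesn2 was higher by 0.81 ± 0.209 (adjusted p = 0.0362), and here the females were also the higher group on control chow. Pdia4, Hsp90b1 and Dnajb11 were called with overlapping groups and adjusted p of 0.0475, 0.0489 and 0.0457, and these calls held in 7, 7 and 8 of the 28 alternatives. Those of Hspa5, Sesn2, Canx, Pdia3, Pdia6, Derl2 and Xbp1 held in 20, 19, 19, 18, 18, 17 and 16 of the 28, and each of the 7 was lost with quantile normalisation and without male PLX3397 replicate 2. Ern1 lay the other way: every female library on PLX3397 (331.2 to 954.3) was below every male one (1018 to 1231), with a difference of -0.90 ± 0.262 that did not pass the test as deposited (adjusted p = 0.0556) and did with upper-quartile scaling or equal library totals.

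The test of whether the response to PLX3397 differed between the sexes called 0 of the 38 genes and 0% of all genes, by limma and also with voom weights. At an unadjusted p under 0.05 there were 13 of the 38 and 2010 of the 19594. The differences between responses had a median of 0.36 in the 38 genes against 0.01 over all genes. Positive differences were found in 34 of the 38, against 9956 of all 19594 genes, and in 29 of the 38 with equal library totals. The smallest adjusted p belonged to Derl1 (0.64 ± 0.163, adjusted p = 0.213), Derl2 (0.76 ± 0.2, adjusted p = 0.228) and Pdia6 (0.64 ± 0.176, adjusted p = 0.233). So the lower levels in males on PLX3397 were called within males and between the treated sexes, and a sex difference in the response itself was not called for any of these genes.

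Level by group shows where the low values sat. Of the 23 folding and degradation genes (chaperones, isomerases and degradation), 20 had their lowest group mean in males on PLX3397, or 87%, against 30.7% of all genes tested. With every library set to the same total the count was 16 of 23, or 69.6%, against 17.9% of all genes. Within that group, the summed chaperone and cofactor genes stood at 158700, 102900, 119200 and 172400 in replicates 1 to 4, against 163700 to 174900 in male controls. Replicates 2 and 3 were the low ones, and replicates 1 and 4 reached or approached the control range. The summed microglial markers of the same 4 libraries were 1375000, 989600, 1041000 and 1405000, lowest in the same 2 libraries, and the summed neutrophil markers were 10700, 11910, 75100 and 18190. The part of the microglial marker level in these results was not tested.

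**Figure D4:**
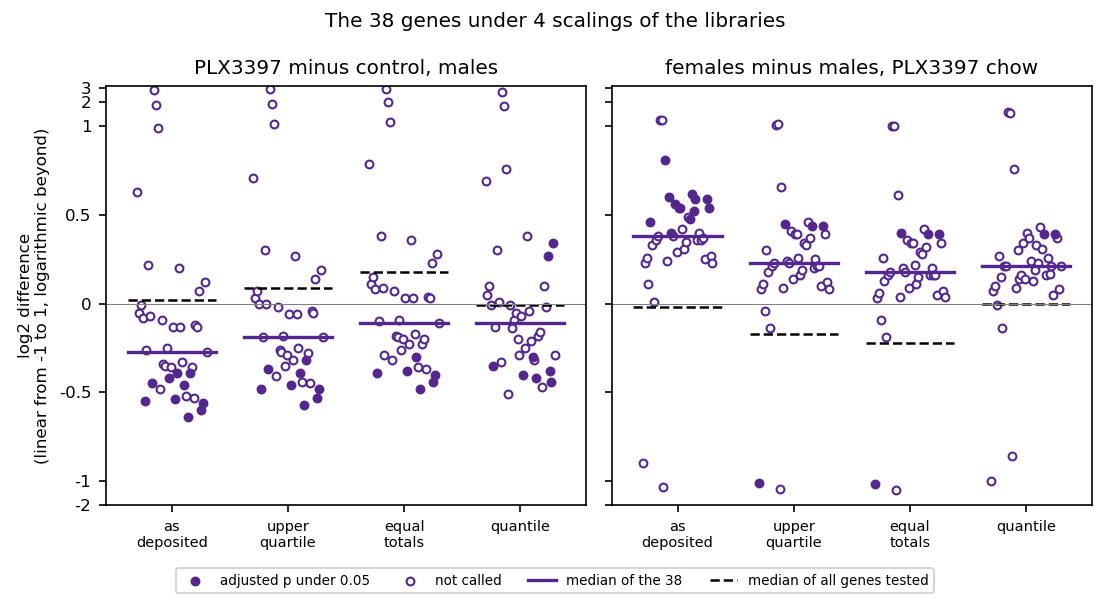
Log2 differences of the 38 genes (points) under 4 scalings of the libraries, for PLX3397 minus control in males (left) and for females minus males on PLX3397 (right), with the median of the 38 (solid line) and of all genes tested (dashed line) and an axis that is linear from -1 to 1 and logarithmic beyond. The solid line lies below the dashed one on the left and above it on the right under each scaling, and fewer points are filled (called) under the 3 other scalings than with the deposited values.

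Scaling moved the counts and the level of the background. In males the median over all genes was 0.02 as deposited, 0.09 with upper-quartile scaling, 0.18 with equal library totals and -0.01 with quantile normalisation. Relative to it, the median of the 38 genes lay at -0.29, -0.28, -0.28 and -0.10. The number of the 38 that fell was 10, 8, 6 and 6 in the same order, and with quantile normalisation Sel1l and Os9 were called higher (0.27 and 0.34). All genes called higher and lower in males numbered 815 and 1474 as deposited, 1032 and 1224, 1348 and 917, and 1040 and 1188. Between the sexes on PLX3397 the median of the 38 relative to all genes was 0.40, 0.40, 0.40 and 0.21, and 12, 3, 3 and 2 of them were higher. All genes called higher and lower in that comparison numbered 838 and 226, 265 and 341, 196 and 375, and 246 and 221. Xbp1, Pdia6 and Derl1 were called lower in males in each of the 28 alternatives run, with Derl1 between -0.68 and -0.38. Edem1 and Derl1 were called higher in treated females in 27 of 28, the exception being a fit to the 2 groups alone. Without male PLX3397 replicate 2, Xbp1, Pdia6 and Derl1 alone were called in males (3 of 38), Edem1 and Derl1 alone between the treated sexes (2 of 38), and the median of the 38 in males was -0.17. Leaving out both male PLX3397 replicate 3, with its high neutrophil markers, and male control replicate 4, with its Xist value, left 5 called in males and 3 between the treated sexes.

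Promoter sequences were examined because several of the genes that fell are known to share a control element. RefSeq windows of 250 bases before to 50 after the start site (build GRCm38.p6) were given for 33 of the 38 genes. Atf6, Manf, Hyou1, Derl1 and Ppp1r15b had none. The ER stress element, the site through which ATF6 with NF-Y acts, was searched on both strands as CCAAT, 9 bases of any kind and CCACG. It occurred in 8 of the 33 genes (Hspa5, Hsp90b1, Calr, Canx, Dnajc3, Creld2, Pdia6 and Syvn1), against 0.137% of all 27025 genes with a window. These genes had 32851 windows. ER stress element II, searched as ATTGG, 1 base and CCACG, occurred in Dnajb11 and Herpud1, against 0.0444% of all genes with a window. The 38 genes were chosen by name as members of this response, so shares above those of all genes were built into the choice. The elements of 5 genes are shown because 4 of these fell in males and the fifth, Hspa5, is a widely used readout of the response. Capitals mark both blocks of fixed letters of the element.
Hspa5: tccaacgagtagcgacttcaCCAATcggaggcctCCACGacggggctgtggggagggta
Pdia6: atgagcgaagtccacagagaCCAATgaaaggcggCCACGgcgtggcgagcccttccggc
Canx: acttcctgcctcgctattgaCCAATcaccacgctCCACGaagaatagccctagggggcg
Dnajc3: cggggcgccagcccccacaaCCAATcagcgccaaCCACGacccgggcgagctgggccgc
Dnajb11: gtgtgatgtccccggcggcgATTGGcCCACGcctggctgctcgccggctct
These lie at chr2:34772005-34772063 (plus strand), chr12:17266471-17266529 (plus), chr11:50325780-50325838 (minus), chr14:118937807-118937865 (plus) and chr16:22857832-22857882 (plus) of GRCm38.p6. The element begins 65, 98, 145 and 105 bases before the start site in Hspa5, Pdia6, Canx and Dnajc3, and 7 bases after it in Dnajb11.

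In males 4 of the 10 genes with either element fell, and the differences of the 10 ranged from -0.64 to -0.12 with a median of -0.34. Of the 23 genes whose window held neither element 4 fell, with a median of -0.09. Among all genes tested 7.52% were called lower. The 10 are all chaperone, isomerase or degradation genes, whereas the 23 include sensors, transcription factors and integrated stress response targets. Folding and degradation genes among the 23 ranged from -0.56 (Derl2) to 0.20 (Sdf2l1). Role and element were not separated in this split. In females 0 of the 10 were called, with a median of 0.02, where 2.67% of all genes were called higher and 2.67% lower. Between the sexes on PLX3397, 5 of the 10 and 6 of the 23 were higher in females, where 4.28% of all genes were higher. Medians were 0.41 and 0.36, with ranges of 0.35 to 0.60 and -1.18 to 1.21. The core of the unfolded protein response element that XBP1 binds, TGACGTGG, was in 0 of the 35 windows of the 33 genes and in 0.676% of all windows. With so low a share over all windows, 0 of 35 tells little about these genes. The amino acid response element core bound by ATF4, TGATGCAA, was in windows of 3 of the 33 genes (Chac1, Nupr1 and Herpud1) and of 1.03% of all genes. No match overlapped another, and a match is a run of letters and not a measured site.

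**Figure D5:**
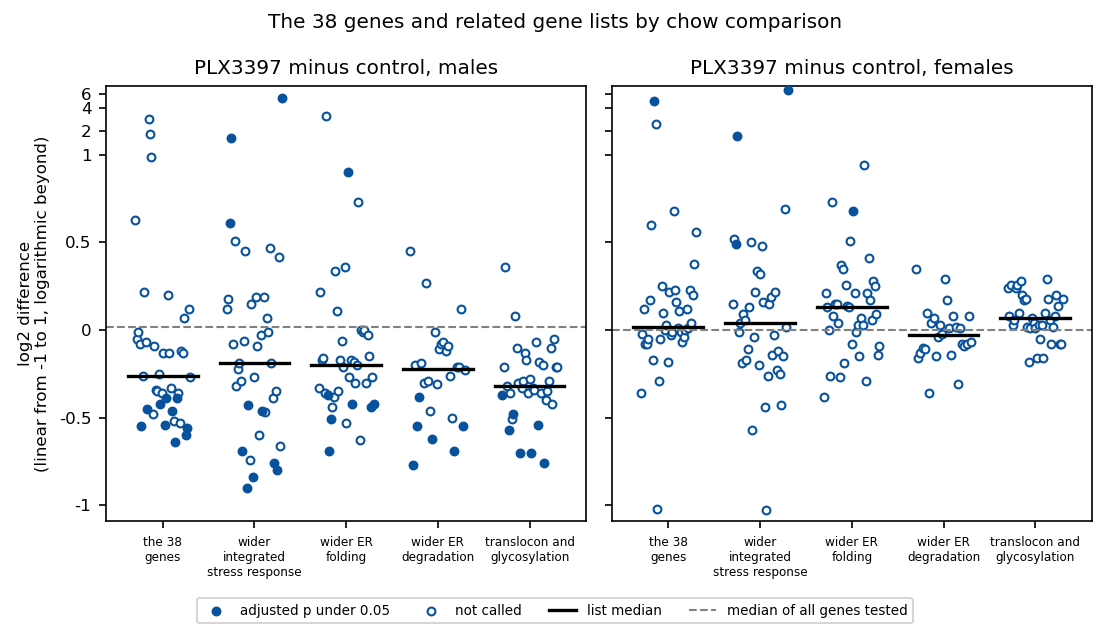
Log2 differences between PLX3397 and control chow in males (left) and females (right) for the 38 genes and 4 wider gene lists (points), with each list's median (solid line) and the median of all genes tested (dashed line), on an axis that is linear from -1 to 1 and logarithmic beyond. In males each list's median lies below that of all genes, and in females the medians lie between -0.03 and 0.13.

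Wider lists of the same pathways placed these genes among their partners. Of 37 further genes tested from the integrated stress response, 3 rose and 7 fell in males on PLX3397, to be read against the 4.16% and 7.52% of all genes. Atf3 and Gdf15, a stress-induced transcription factor and a secreted stress cytokine, rose by 1.66 ± 0.238 and 5.27 ± 0.985 in males, and Cebpg, a partner of ATF4, by 0.61 ± 0.106. The SE of Gdf15 was large beside the list's median SE of 0.18, so the size of its rise is less certain. Phgdh, the first enzyme of serine synthesis, and Mars1, the methionyl-tRNA synthetase, both targets of ATF4, fell by 0.84 ± 0.108 and 0.76 ± 0.124. In females the list had 3 of 37 genes higher and 0 lower, where 2.67% of all genes were called higher and 2.67% lower. At an unadjusted p under 0.05 there were 8 of 37, against 3347 of all 19594 genes. The 3 genes were Atf3 (1.73 ± 0.238), Gdf15 (6.65 ± 0.985) and Cebpg (0.49 ± 0.106), whereas Phgdh (-0.20 ± 0.108) and Mars1 (-0.25 ± 0.124) were not called.

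Among 37 further ER folding genes, 1 rose and 6 fell in males, against 4.16% and 7.52% of all genes. Dnajb14, which encodes a J-domain protein of the ER membrane, rose by 0.90 ± 0.121 in males. It was the 1 gene of this list called in females (0.68 ± 0.121), where 2.67% of all genes were called higher. The isomerase genes Txndc5 and Pdia5 fell by 0.51 ± 0.114 and 0.69 ± 0.171 in males, and the folding cofactor gene Cnpy3 by 0.42 ± 0.103. Of 26 further degradation genes 6 fell and 0 rose in males, among them Jkamp, an ER membrane protein gene (-0.69 ± 0.135), the ubiquitin ligase gene Rnf139 (-0.55 ± 0.115) and Vcp, the ATPase that extracts proteins from the membrane (-0.38 ± 0.0935). Of 35 genes of the translocon and of N-glycosylation 7 fell and 0 rose in males, among them Stt3a, the catalytic subunit of oligosaccharyltransferase (-0.76 ± 0.15), the signal peptidase subunit gene Spcs3 (-0.70 ± 0.119), Srp68 of the signal recognition particle (-0.70 ± 0.134) and Ssr3 (-0.48 ± 0.104). In females 0 genes of the last 2 lists were called by limma. At an unadjusted p under 0.05 there were 1 of 26 and 2 of 35, against 3347 of all 19594 genes. The medians of these 2 lists in males were -0.22 and -0.32, against 0.02 over all genes, and in females -0.03 and 0.07. Between the treated sexes 8 of 37, 5 of 37, 4 of 26 and 12 of 35 genes of the 4 lists were higher in females and 0 lower. Of all genes 4.28% were higher there and 1.15% lower. With quantile normalisation the genes that fell in males numbered 5, 2, 4 and 4 and those higher in treated females 4, 0, 1 and 4. The shares of all genes under that scaling were 6.06% and 1.26%.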

How the data were processed

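RNA of sorted cortical microglia from 16 libraries was measured in 4 groups of 4 (sex by chow), grouped by their labels. The authors deposited a table of normalised read counts per gene, treated here as a signal: values are not whole numbers, and whole reads could not be recovered gene by gene, so no count model was used. Without giving roles, the submitters' processing notes list the aligner STAR (2.7.9a), Salmon (1.5.2), Subread with featureCounts (2.0.1), bcl2fastq (2.19.1) and, as genome, GRCm39. The normalisation formula and the annotation release are not given in the sources used here, and the table holds no coordinates. Per the labels' protocols, picogram amounts of RNA were amplified before library preparation. Spacing of the low values put the worth of 1 read at 0.516 to 1.88 by library, from which reads were estimated. Counting intervals were not computed, and precision is given as SD over 4 libraries, SE or a 95% interval.

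Symbols came from a GENCODE table of build GRCm38 for 51029 of 53850 identifiers and 19407 of those tested. Older names in the lists were matched through RefSeq synonyms. Ddit3 had 2 identifiers, of which the 1 above 0 was used. A gene was kept when 4 or more libraries held 10 or more. Values were put on the log2(value + 1) scale and fitted by limma 3.58.1 (R 4.3.3) with a mean for each of the 4 groups and an intensity trend in the variance prior. Tests were two-sided, with Benjamini-Hochberg adjusted p under 0.05 over all genes tested. The design assumed normalised values, as found. A p adjusted over the 38 genes alone was not computed. The procedure was tested on simulated data.

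The 38 genes, the wider lists and the marker lists were chosen with earlier results of these data known. Each library's value is given for Xbp1, Atf4, Ddit3, Ern1, Eif2ak3, Atf6, Hspa5 and the 12 genes with the smallest adjusted p over the 5 comparisons, other genes are given by means or ranges, and from each wider list up to 4 called genes with the smallest p per chow comparison are named, except 1 result that is not reported here. Alternatives were other pseudocounts (0.5 and 5), filters, scalings, weights, a fit to the compared groups, a replicate block, each library left out, and male PLX3397 replicate 3 with male control replicate 4 left out.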

Additional observations from a re-analysis of the deposited data

Results flagged for a closer look

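In 11 of 152 combinations of a gene and a group, 1 library stood apart from the other 3 by a gap test within the group (Dixon's ratio above its 95% critical value), which chance does in about 1 in 20 groups. Ern1 was at 1018 in male PLX3397 replicate 2, below the 1199 to 1231 of its group. In the same library Dnajc3 was at 3911, below 5031 to 5185. Male PLX3397 replicate 1 had Atf6 at 3092, above 2189 to 2260, and Nupr1 at 1224, below 1456 to 1501. Edem1 was at 15290 in female control replicate 2, against 16840 to 16990 in its group. Syvn1 was at 3805 in female PLX3397 replicate 3, against 4082 to 4129.

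The other 5 concern genes near 0. Trib3 was at 53.9 in male control replicate 3, where the others held 0 to 2.061, and at 28.58 in female control replicate 2, where the others held 0. Chac1 was at 23.57 in male control replicate 1 and at 13.17 in female PLX3397 replicate 2, each the only library of its group above 0, and at 43.99 in female control replicate 1, where the others held 0 to 5.962.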

How the results depend on the processing

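No called change of the 38 genes reversed its sign in the 28 alternatives, and counts that moved by over 1.5 times were as follows. In males the 10 called genes became 6 with equal library totals, 4 (1 higher) when only the 2 groups were fitted, 5 when male control replicate 4 and male PLX3397 replicate 3 were both dropped, and 3 to 11 when single libraries were left out: 3 without male PLX3397 replicate 2, 5 without its replicate 3, and 5, 4 and 6 (1 higher) without male control replicates 1, 2 and 3. In females the 1 called gene became 3 with equal totals or quantile normalisation, 2 when only the 2 groups were fitted, 0 with voom weights, and 0 to 2 without single libraries (2 without male PLX3397 replicate 2 or 4). For females minus males on PLX3397 the 12 became 3 without a filter on low values, 4 with upper-quartile scaling or equal totals (Ern1 lower), 2 with quantile normalisation, 0 when only those 8 libraries were fitted (26 genes higher and 18 lower over all genes), 3 when those 2 libraries were dropped, and 2 to 15 without single libraries: 2 and 4 without male PLX3397 replicates 2 and 3, and 6, 3 and 3 without female PLX3397 replicates 2, 3 and 4. Counts for the difference between responses and for control chow were 0 throughout, and a fit to the compared groups alone was not possible for the former because it uses all 4. Leaving libraries out lowered the number of samples and also moved the estimates. Without male PLX3397 replicate 2 the median of the 38 in males went from -0.27 to -0.17. The cause of these moves was not tested. With the replicate number as a replicate block, 9, 1, 0, 0 and 8 genes were called in the 5 comparisons. The numbers do not pair the libraries: over 24 same-numbered pairs, deviations from the group means correlated at -0.04 to 0.12 (1 over 0.1), and 2 of 16 libraries correlated best with their own number. Wider lists moved too: over single libraries left out, translocon genes that fell in males numbered 4 to 12. Precision was lowest for Trib3, Asns and Chac1 (SE 1.21, 1.17 and 1.56 in each chow comparison), and whether depth or spread between samples limits it was not tested.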
